A study of Ascaris suum with 62 samples.

Results

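CENP-A peaks of the first-numbered testis list (testis1) were set against those of the first-numbered ovary list (ovary1) of the pig roundworm Ascaris suum. CENP-A is the histone H3 variant of centromeric chromatin, mapped by ChIP-seq, in which DNA pulled down with the protein is sequenced and regions rich in reads are called as peaks. Both peak tables were taken whole: 12707 peaks of testis1 and 11974 of ovary1, of 163819 peaks in the 12 CENP-A lists of the series. They rest on 4 of the 62 samples, with 1 single-end and 1 paired-end library for each list. The testis1 libraries were labelled as testis and the ovary1 libraries as ovary, both listed as untreated. Strain, age and number of animals, what the gonad numbers stand for, and whether the libraries of a list came from separate animals are not given in the sources used here, so p-values measure only the spread between the libraries of a list, which may be technical.

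Centromeres are where chromosomes attach to the spindle, and CENP-A nucleosomes are the base on which the kinetochore, the attachment structure, is built. Ascaris chromosomes are holocentric: CENP-A is spread over the length of the chromosome. In early cleavage, Ascaris loses part of its DNA from the cells that become soma, while germ cells in testis and ovary keep all of it. The authors marked each peak as retained or eliminated.

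Reads in peaks were 3994828 and 4092641 in the testis1 libraries, against 3172504 and 1656017 in the ovary1 libraries. The lists covered 38.4 Mb in testis1 and 28.8 Mb in ovary1. A library's reads in peaks were its depth here, and values are given as RPM, reads per 1000000 reads in the peaks of the library. RPM sum to a fixed total, so a list that covers more length has fewer of them per kb. For the same reason, a low share of reads on some scaffolds raises the RPM of the others. How much this adds to values that were higher in testis1 was not tested. Log2 densities (RPM per kb of peak) of the 2 libraries of a list correlated across peaks at 0.899 in testis1 and 0.906 in ovary1, a description in which the libraries share 1 peak set. Reads outside peaks were not analysed here, so the lack of a peak is not the lack of CENP-A. Reads of each list were counted only in its own peaks, so tests of windows and scaffold parts compare reads over different intervals. The libraries of a list share 1 peak set, so p-values leave out variation in peak calling. No gene or sequence could be assigned to a peak.

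Retained peaks of a group of long scaffolds held far fewer reads in testis1. Retained peaks were compared on the 126 scaffolds that have them and span at least 500 kb. On 24 of these their RPM was lower in testis1 by more than 2-fold (log2 of testis1 over ovary1 below -1). The 24 scaffolds were 1, 2, 6, 12, 26, 30, 38, 40, 41, 47, 59, 60, 69, 72, 75, 77, 78, 79, 89, 105, 106, 118, 122 and 124, and together they span 50.1 Mb, or 17.6% of the span of all scaffolds. The log2 values of their retained peaks ran from -2.80 to -1.11, with a median of -1.85. On scaffolds 6, 60 and 106 the eliminated peaks, fitted apart, did not share the deficit, with log2 values of 1.15, -0.19 and -0.05. The bound was set after the values were seen, so the set is described and not tested. Just inside it, scaffold 59 had 2402 and 2463 RPM in testis1, against 5237 and 5232 in ovary1. Just outside it, scaffold 111 had 911 and 1010 in testis1, against 1666 and 1894 in ovary1 (log2 -0.89). Among the 87 scaffolds of at least 1 Mb, 18 lay below -1, 69 at or above -0.5, and 0 between. With only peaks at or above the median density of both lists together, a cut that keeps few testis1 peaks, 65 scaffolds lay below -1.

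**Figure D1:**
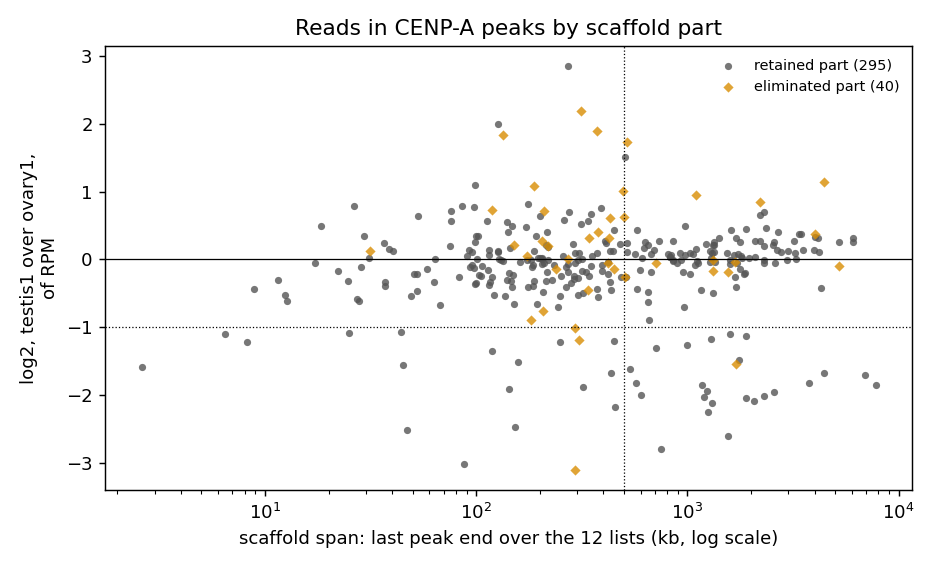
Each point is the retained or the eliminated part of 1 scaffold with peaks in both lists; the x axis is the span of the scaffold in kb and the y axis the log2 of testis1 over ovary1 in RPM. The 24 retained parts at the lower right (right of 500 kb and below -1, both dotted) are followed upwards by scaffold 111 at -0.89. The median log2 of the other 102 long retained parts was 0.09.

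The longest of them show how alike their libraries were. Scaffold 1, which spans 7786 kb, had 7562 and 6985 RPM in testis1, against 26318 and 26113 in ovary1. Scaffold 2, which spans 6895 kb, had 5915 and 6447 in testis1, against 20635 and 19877 in ovary1. The retained peaks of scaffold 6 had 4022 and 3775 in testis1, against 12581 and 12434 in ovary1. On these 3 scaffolds the libraries of a list lay close together, while the lists stood more than 3-fold apart. At the same length, scaffolds 3 and 4, which span 6112 and 6070 kb, did not share the deficit. Scaffold 3 had 24804 and 25427 RPM in testis1, against 20658 and 19764 in ovary1 (log2 0.31 ± 0.05, SE).

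Testis1 had fewer peaks and less cover on the 24 scaffolds, and its peaks there were sparser. The 24 scaffolds held 892 peaks of testis1 and 2151 of ovary1. Peaks covered 5.00% of their span in testis1, against 10.3% in ovary1; on each of the 24 scaffolds cover was lower in testis1. On the other 102 long scaffolds the order was the opposite, with 16.6% in testis1 and 10.9% in ovary1, and cover was higher in testis1 on 98 of them. Of the testis1 peaks on the 24 scaffolds, 76.2% overlapped a peak of ovary1, whereas only 31.6% of the ovary1 peaks there overlapped one of testis1. On the other long scaffolds these shares were 52.7% of testis1 peaks and 74.5% of ovary1 peaks. The 24 were chosen for low testis1 reads in peaks of these same lists. Their peak counts, cover and overlap are therefore not separate evidence and were not tested.

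**Figure D2:**
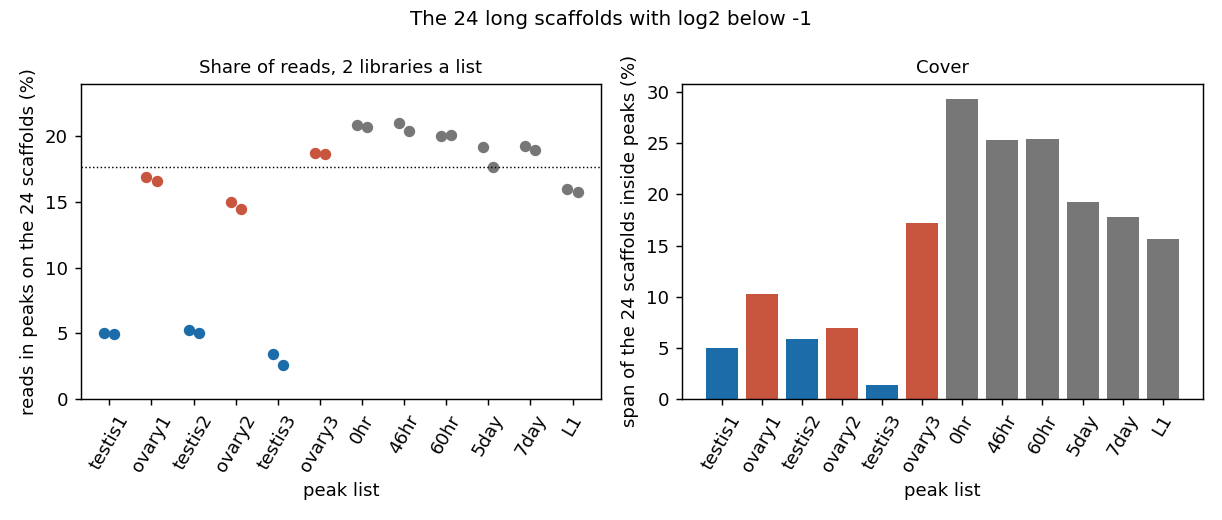
Left, percent of a library's reads in peaks that fell on the 24 scaffolds, with 1 point per library, and right, percent of their span inside peaks, for the 12 lists (testis blue, ovary red, embryos and L1 larvae grey). The dotted line is the share of the span that the 24 scaffolds make up, 17.6%; the testis libraries lie between 2.62% and 5.27% and the other libraries between 14.5% and 21.0%.

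Lists that the choice of scaffolds did not use showed the same order. The 24 scaffolds held 5.05% and 4.94% of the reads in peaks in testis1, against 16.9% and 16.6% in ovary1. They held 5.27% and 5.01% in testis2, against 15.0% and 14.5% in ovary2. They held 3.41% and 2.62% in testis3, against 18.7% and 18.7% in ovary3. The testis libraries thus did not overlap the ovary libraries, and every embryo and larval library lay at 15.8% or higher. With 2 testis and 2 ovary lists left, an exact two-sided permutation test cannot go below 0.333, so no test was made. Cover was higher in testis2 than in ovary2 on 8 of the 24 scaffolds and on 100 of the other 102. It was higher in testis3 than in ovary3 on 0 of the 24 and on 4 of the other 102; testis3 is a short list whose libraries correlated at only 0.522.

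Where both lists had a peak at the same place on the 24 scaffolds, the peak was sparser in testis1. A shared locus is a group of peaks of both lists joined by an overlap of at least 1 bp. On the 24 scaffolds, the median density over 598 shared loci was 16.7 and 16.6 RPM per kb in testis1, against 31.7 and 31.4 in ovary1. On the other long scaffolds, over 4602 loci, it was 20.5 and 20.6 in testis1, against 29.0 and 28.6 in ovary1. The median log2 of density was -0.89 on the 24 scaffolds and -0.45 on the others, beside -0.48 over all 6160 loci. The loci on the 24 scaffolds were also shorter in testis1, with a median peak length of 2.82 kb in testis1 and 3.66 kb in ovary1, while elsewhere they were longer in testis1, at 3.86 kb in testis1 and 2.55 kb in ovary1. Because these loci sit on scaffolds chosen for low testis1 reads, the values are given without a test.

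On 4 other long scaffolds a low stretch lay inside the scaffold. Runs of at least 4 bins of 100 kb with a log2 below -1 (20 RPM added to each side) were taken after the pattern was seen. On the long scaffolds outside the 24, 101 of 1791 bins (5.64%) lay below -1. The run on scaffold 52 holds 7 bins, fewer than its length would give. On scaffold 5, from 4500001 to 5100000, peaks held 802 and 734 RPM in testis1, against 2617 and 2608 in ovary1 (log2 -1.77), while the log2 of the rest of the scaffold was 0.47. On scaffold 43, from 600001 to 1200000, they held 933 and 857 in testis1, against 3296 and 3228 in ovary1 (log2 -1.87, and 0.56 over the rest). On scaffold 52, from 100001 to 900000, they held 410 and 384 in testis1, against 2632 and 2518 in ovary1 (log2 -2.70, and 0.25 over the rest). On scaffold 92, from 400001 to 800000, they held 241 and 229 in testis1, against 1324 and 1350 in ovary1 (log2 -2.51, and 0.09 over the rest). The low stretch is thus a block of 400 to 800 kb inside a scaffold that otherwise ran level or higher in testis1. In the lists not used for the choice, cover of the stretch of scaffold 52 was 3.18% in testis2 and 4.35% in ovary2, and 0.0856% in testis3 and 9.91% in ovary3. For the stretch of scaffold 5 the testis2 value was not lower, at 7.54% in testis2 and 7.08% in ovary2, whereas testis3 had 1.88% and ovary3 14.8%. Which chromosome each scaffold belongs to is not given in the sources used here, and the input libraries were not analysed here, so fewer copies of the DNA and less CENP-A per copy cannot be told apart on these scaffolds and stretches.

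Over all scaffolds, reads were tested per scaffold part, the retained or eliminated peaks of 1 scaffold, with edgeR's quasi-likelihood test and Benjamini-Hochberg adjustment. Of 335 parts with peaks in both lists, 78 (23.3%) were higher and 89 (26.6%) lower in testis1 at an adjusted p under 0.05. Among parts with at least 10 kb of peak, the lowest were scaffolds 105, 60, 266, 75 and 138, all retained. Scaffold 105 had 205 and 191 RPM in testis1, against 1358 and 1399 in ovary1 (log2 -2.80 ± 0.09, SE; edgeR adjusted p = 2.08e-06). Scaffold 60 had 754 and 730 in testis1, against 4688 and 4367 in ovary1 (log2 -2.61 ± 0.07; edgeR adjusted p = 1.73e-06). Scaffolds 266 and 138, which span 152.6 and 453.5 kb, lie below the length bound of the 24 and had log2 values of -2.47 and -2.17. The highest were scaffold 177 (retained, log2 2.86 ± 0.15), 174 (eliminated, 2.19 ± 0.15), 297 (retained, 2.00 ± 0.16), 158 (eliminated, 1.89 ± 0.10) and 293 (eliminated, 1.84 ± 0.41). Scaffold 177 rests on 5 testis1 peaks with 183 and 194 RPM and 1 ovary1 peak with 23.96 and 28.99. The testis1 libraries of scaffold 293 were far apart, with 3704 and 1431 RPM, against 720 and 711 in ovary1; without the first testis1 library its log2 was 1.00. With testis1 trimmed to its densest peaks at the covered length of ovary1, scaffold 177 was at 0.89 and 297 at 0.61, while 174, 158 and 293 were at 2.19, 1.89 and 1.81. With only peaks at or above the median density, 297 turned to -3.14. Calls per scaffold part depended on the libraries and on length: without the first ovary1 library 44 parts were higher, without the second 46, and with testis1 trimmed as above the split was 37 higher and 163 lower.

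Some scaffolds had peaks in 1 of the lists only. Retained peaks were found on 79 scaffolds in testis1 only and on 18 in ovary1 only, and eliminated peaks on 4 in testis1 only and on 2 in ovary1 only, beside 295 retained and 40 eliminated parts with peaks in both. The largest testis1-only scaffold by peak length was 141, with 23 peaks and 3170 and 3358 reads in testis1 and no peak in ovary1. Scaffolds 137, 149, 279, 167 and 306 came next, with 9 to 17 testis1 peaks each. The largest ovary1-only scaffold was 246, with 10 peaks and 2183 and 1236 reads in ovary1 and no peak in testis1. Scaffolds 351, 388 and 369 followed, with 4 to 6 ovary1 peaks each. Of the 6 testis1-only scaffolds, 4 had no peak in ovary2 either, namely 141, 149, 279 and 306, and all 6 had peaks in testis2, testis3 and ovary3, with 2.25% to 20.5% cover in ovary3. Of the 4 ovary1-only scaffolds, all had peaks in ovary2 and ovary3, and 246 and 351 also had peaks in testis2, with 4.46% and 7.14% cover. These scaffolds were chosen for peak length after their values were seen.

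Overlap between the lists was broad but uneven. They shared 19.96 Mb of a joint 47.3 Mb, which is 51.9% of the testis1 length and 69.3% of the ovary1 length. Of the testis1 peaks, 6818 (53.7%) overlapped an ovary1 peak; of the ovary1 peaks, 7926 (66.2%) overlapped a testis1 peak. At least 50% of the peak was overlapped in 37.7% of testis1 peaks and 57.8% of ovary1 peaks. The lists differ in length, and the longer list can overlap more of the shorter one by length alone: with testis1 trimmed to its densest peaks at the covered length of ovary1, the order turned round, with 62.6% of testis1 and 51.9% of ovary1 peaks overlapped. Testis1 shared 54.6% of the shorter list with testis2 and ovary1 shared 53.3% with ovary2, beside 69.3% between testis1 and ovary1.

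Peaks found in both lists were the wide ones. Shared testis1 peaks had a median width of 3170 bp, against 1226 bp for testis1-only peaks, and shared ovary1 peaks had 2049 bp, against 1100 bp for ovary1-only peaks. A wide peak is more likely to be overlapped by its length alone. Of testis1 peaks of at least 10 kb, 575 of 578 were shared, and of those under 500 bp, 184 of 1098. For ovary1 these counts were 241 of 248 and 499 of 1307. Shared peaks were also denser: the median was 20.3 RPM per kb for shared and 17.6 for testis1-only peaks, and 29.5 for shared and 26.0 for ovary1-only peaks. The interquartile ranges overlapped in both lists. The testis1-only peaks, 46.3% of the list by number, held 20.7% and 22.2% of the reads in peaks of the 2 libraries, and the ovary1-only peaks, 33.8% by number, held 15.4% and 15.0%.

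**Figure D3:**
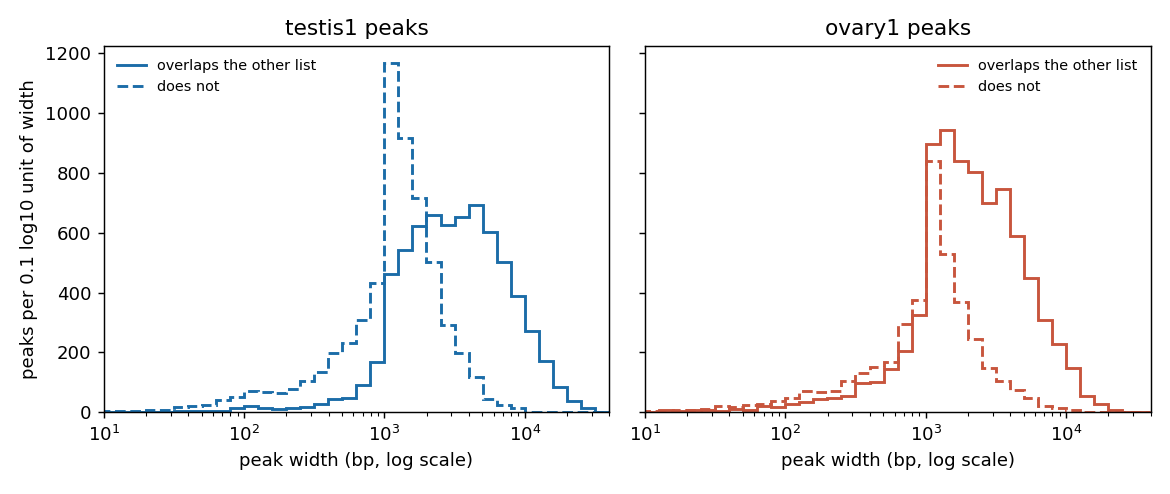
Number of peaks by width (bp, log scale, steps of 0.1 log10 units; peaks under 10 bp are not drawn) for testis1 on the left and ovary1 on the right; the solid line is peaks that overlap the other list by at least 1 bp and the dashed line peaks that do not. List-only peaks gather near 1 kb, and most peaks above 5 kb are shared.

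The densest testis1 peaks were shared less often than those just below them in density. The shared percentage was 35.5%, 49.2% and 62.4% in the lowest, the second and the third quartile of testis1 peaks by density and 68.9% from there to the 99th percentile, but 34.4% among the 128 densest. For ovary1 these values were 47.5%, 67.4%, 76.6% and 73.6%, and 65.0% among the 120 densest. No minimum width was set here, and 488 testis1 and 552 ovary1 peaks were under 200 bp, so a density can rest on a few bp. Among peaks of at least 200 bp and at least 10 times the median density of their list, 29 of 68 in testis1 and 27 of 28 in ovary1 were shared. How much narrow peaks add to the low share was not tested.

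The median distance from a list-only peak to the nearest peak of the other list was 4.39 kb for testis1-only and 7.38 kb for ovary1-only peaks on scaffolds with peaks of both, and 16.2% of testis1-only and 16.4% of ovary1-only peaks lay within 1 kb. The 3 widest testis1-only peaks were on scaffolds 137 (17.3 kb), 402 (12.8 kb) and 149 (10.5 kb), each a scaffold with no ovary1 peak of any kind. The 3 widest ovary1-only peaks were on scaffolds 41 (13.6 kb), 78 (12.0 kb) and 43 (11.2 kb). Scaffolds 41 and 78 are among the 24 low scaffolds, and the peak of scaffold 43, from 968987 to 980179, lies inside the low stretch named above. The ovary1 peak of scaffold 78, from 952547 to 964535, had 55.1 and 53.9 RPM per kb; testis2 and testis3 also had no peak there, while ovary2 covered 70.9% of it, ovary3 38.7% and the 0hr embryo list 62.5%. The ovary1 peaks of scaffolds 41 and 43 also had no peak in testis2 or testis3; ovary2 and ovary3 covered 24.7% and 33.4% of the peak on scaffold 41 and none of that on scaffold 43. The testis1 peak of scaffold 137 was covered by 11.9% in testis2 and 56.8% in testis3, and by 35.4% in ovary2 and 50.2% in ovary3. Those of scaffolds 402 and 149 were covered by 43.8% and 29.5% in testis2 and had no peak in ovary2 or ovary3.

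List-only peaks were then looked up in the other 10 lists of the series. Of the 5889 testis1-only peaks, 51.3% were overlapped by testis2, against 24.6% of the 4048 ovary1-only peaks. Testis3 overlapped 25.6% of testis1-only and 10.4% of ovary1-only peaks. Ovary2 overlapped 19.8% of testis1-only and 25.1% of ovary1-only peaks, and ovary3 36.8% of testis1-only and 42.1% of ovary1-only peaks. Each of these lists thus overlapped a larger share of the list-only peaks of its own gonad than of those of the other gonad. With only peaks at or above the median density this order did not hold, since testis2 overlapped 45.8% of testis1-only and 50.3% of ovary1-only peaks. The low scaffolds named above, where every testis list held few reads, carried 1471 of the ovary1-only and 212 of the testis1-only peaks. The order outside those scaffolds was not tested. The 0hr embryo list overlapped 46.1% of testis1-only and 52.8% of ovary1-only peaks. In none of the other 10 lists were 12.0% of testis1-only and 18.5% of ovary1-only peaks found. These shares rise with the length of the list compared, so testis1-only and ovary1-only peaks are compared within 1 such list and not between lists.

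**Figure D4:**
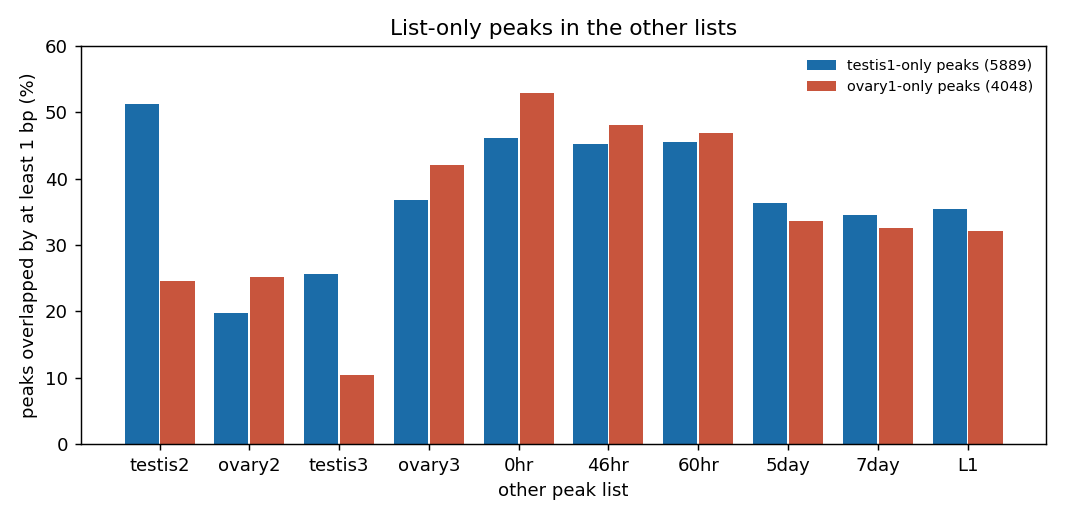
Percent of testis1-only peaks (blue) and of ovary1-only peaks (red) that each of the other 10 lists overlapped by at least 1 bp. Testis2 and testis3 overlapped more of the testis1-only peaks, and ovary2, ovary3 and the 0hr, 46hr and 60hr embryo lists more of the ovary1-only peaks.

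Shared loci were compared by density, with edgeR's quasi-likelihood test on reads and an offset for peak length. There were 6160 loci, of which 4441 joined 1 testis1 to 1 ovary1 peak. In these pairs the testis1 peak was the wider in 69.7%, with median widths of 2758 bp in testis1 and 1986 bp in ovary1, and it enclosed the ovary1 peak in 40.7%, while the ovary1 peak enclosed the testis1 peak in 13.6%. One testis1 peak spanned several ovary1 peaks at 1118 loci, and 1 ovary1 peak spanned several testis1 peaks at 381. At an adjusted p under 0.05 (edgeR), 54 loci (0.877%) were denser and 3978 (64.6%) less dense in testis1. This count holds the difference in covered length: without the length offset, 1451 loci (23.6%) had more and 2008 (32.6%) fewer reads in testis1, and the median log2 was -0.10. Without the first ovary1 library, 34 loci were denser and 2184 less dense. Relative to the median locus, a scale added after the data were seen, 213 loci (3.46%) were denser and 518 (8.41%) less dense. Of the 518, 224 lay on the 24 low scaffolds, which hold 598 of the 6160 loci and were chosen for low testis1 reads in the same libraries, so nothing is read from that share.

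The loci least dense in testis1, among those of at least 2 kb with at least 50 reads in every library, included 3 at which the testis1 peaks were shorter than the ovary1 peak. On scaffold 1, from 2289730 to 2295480, a testis1 peak of 1.89 kb had 13.4 and 14.3 RPM per kb, against 60.8 and 64.2 in an ovary1 peak of 5.75 kb (log2 -2.17 ± 0.15, SE; edgeR adjusted p = 2.03e-08). On scaffold 79, from 534097 to 546439, 3 testis1 peaks had 11.9 and 12.5, against 53.2 and 51.3 in 1 ovary1 peak of 12.3 kb (log2 -2.10 ± 0.14; edgeR adjusted p = 1.70e-08). On scaffold 22, from 2139318 to 2144968, testis1 had 11.8 and 12.8, against 53.2 and 53.8 in ovary1 (log2 -2.12 ± 0.16; edgeR adjusted p = 3.76e-08). Scaffold 22 is not among the 24. At this locus testis2, testis3 and ovary3 had no peak, while ovary2 covered 47.0% of it. With testis1 trimmed to the covered length of ovary1, the loci on scaffolds 1, 79 and 22 had no value. They had none either with only peaks at or above the median density. The remaining loci of this group were on scaffolds 266 (-2.36) and 54 (-2.10). The ovary1 libraries of scaffold 54 were far apart, at 386 and 1032, and the log2 without the second of them was -1.22.

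The loci densest in testis1 relative to ovary1 moved less, and their libraries agreed less. The largest log2 was 0.74 ± 0.25 on scaffold 104, from 673036 to 676203, with 141 and 309 RPM per kb in testis1, against 104 and 167 in ovary1 (edgeR adjusted p = 0.0177). There the library values of the lists overlapped, and without the second testis1 library the log2 was 0.068 and no longer passed the test. On scaffold 127, from 266763 to 272730, an eliminated locus, testis1 had 478 and 551, against 359 and 364 in ovary1 (log2 0.51 ± 0.16; edgeR adjusted p = 0.00933). These values did not overlap, though the call was lost without either ovary1 library. The testis1 peak there ended at 271556 and the ovary1 peak began at 271392, so the 2 densities mostly come from different sequence. Loci on scaffolds 84, 71 and 9 completed the group, with log2 values of 0.63, 0.47 and 0.43, and each lost its call without at least 1 of the libraries.

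At the longest shared loci the difference in density did not pass the test. On scaffold 88, from 212431 to 257621, 4 testis1 peaks of 40.1 kb had 24.9 and 25.1 RPM per kb, against 28.7 and 29.2 in 5 ovary1 peaks of 40.2 kb. The log2 was -0.21 ± 0.14 (edgeR adjusted p = 0.191), less of a gap than at the median locus. None of the 5 longest loci, on scaffolds 88, 4, 131, 55 and 5, passed the test, and their log2 values ran from -0.29 to -0.07. The locus on scaffold 5, from 205612 to 241221, was continuous in testis1 and broken in ovary1, with 34.9 kb in 2 testis1 peaks and 19.1 kb in 9 ovary1 peaks. By reads without the length offset it was higher in testis1 (log2 0.80; edgeR adjusted p = 0.000123), with 679 and 833 RPM in testis1, against 448 and 423 in ovary1.

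By 20 kb window, 5590 of 8758 windows with a peak had one in both lists, 1704 in testis1 only and 1464 in ovary1 only. Of 5586 windows tested on reads with edgeR, 1886 (33.8%) were higher and 1818 (32.5%) lower in testis1 at an adjusted p under 0.05. With testis1 trimmed to the covered length of ovary1, the split was 1199 higher and 1759 lower. The 24 low scaffolds held 63 (3.70%) of the testis1-only and 704 (48.1%) of the ovary1-only windows, an order that their choice by reads in peaks fixes. The longest ovary1-only run by peak length, on scaffold 60 from 980001 to 1100000, had 902 and 845 RPM in ovary1 and no peak in testis1, testis2 or testis3. The run on scaffold 7 from 3680001 to 3760000 was covered at 30.2% in ovary1, 18.5% in ovary2, 30.1% in ovary3 and 49.4% in the 0hr list, with no peak in any testis list. The longest testis1-only run was on scaffold 149 from 140001 to 220000, with 663 and 651 RPM in testis1, and no peak in ovary1 or ovary2; it was covered at 13.9% in testis2, 2.18% in testis3 and 11.6% in ovary3.

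Windows called here were also followed into the other gonad lists. Testis2 had more cover than ovary2 in 76.2% of windows that were higher in testis1 and in 50.2% of those that were lower, beside 65.0% of all tested windows. Testis3 had more cover than ovary3 in 33.9% of windows that were higher in testis1 and 16.6% of those that were lower, beside 27.1% of all. The low scaffolds held 45 (2.39%) of the higher and 453 (24.9%) of the lower windows, beside 573 (10.3%) of those tested. These shares are thus mixed with that set, and windows outside it were not followed apart. The runs with the largest fall in RPM on retained sequence were on scaffold 173 from 60001 to 140000, with 1626 and 1828 in testis1, against 2867 and 3285 in ovary1, and on scaffold 1 from 3360001 to 3440000, with 319 and 304 in testis1, against 1264 and 1263 in ovary1.

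Eliminated sequence took a larger share of the reads in testis1. It held 12.4% and 13.2% of reads in peaks in testis1 (Wilson 95% intervals 12.35% to 12.41% and 13.14% to 13.21%), against 6.63% and 7.41% in ovary1 (6.61% to 6.66% and 7.37% to 7.45%). The intervals cover counting error only, and the gap between lists was larger than that between the libraries of a list. By covered length the lists were closer, with 3.28% in testis1 and 2.81% in ovary1, and by number of peaks 449 (3.53%) in testis1 and 379 (3.17%) in ovary1. In both lists eliminated peaks were denser than retained ones: the medians were 32.2 and 18.9 RPM per kb in testis1, and 42.7 and 28.2 in ovary1. Of the 40 eliminated parts tested, 17 (42.5%) were higher and 6 (15.0%) lower in testis1, beside 61 (20.7%) and 83 (28.1%) of the 295 retained parts. The retained parts include those of the 24 low scaffolds, of which all 24 were lower. Of the other 102 long retained parts, 32 were higher and 14 lower. With only peaks at or above the median density, eliminated peaks held 22.7% of the reads in testis1 and 7.41% in ovary1.

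**Figure D5:**
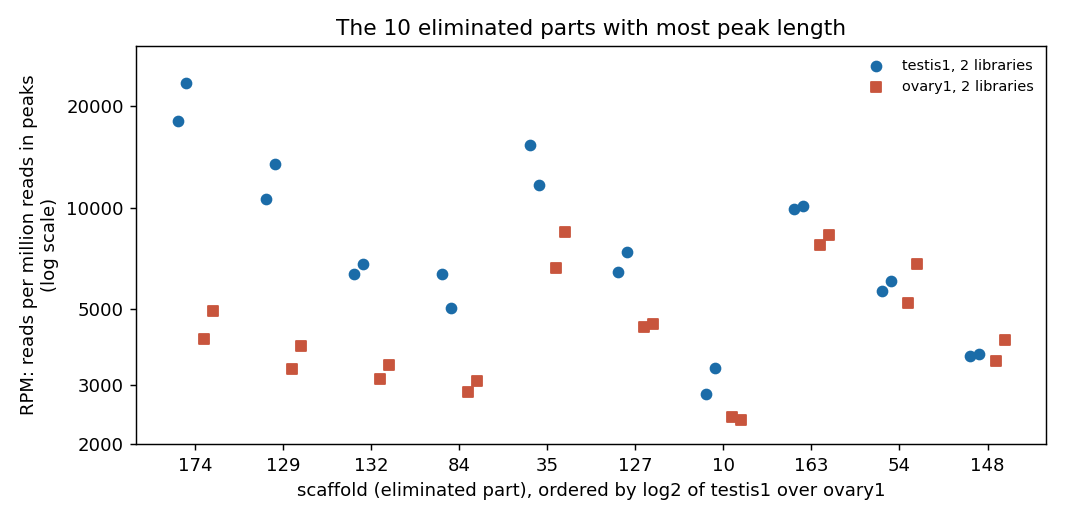
RPM (log scale) on the 10 eliminated parts with most peak length, for the 2 testis1 libraries (blue circles) and the 2 ovary1 libraries (red squares). The testis1 libraries lie above the ovary1 libraries on 8 of the 10 scaffolds, and on 54 and 148 the values of the lists overlap.

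The gap came from few scaffolds. Scaffolds 174, 158, 129 and 35 held 6.14% and 6.89% of the reads in peaks in testis1, against 1.88% and 2.28% in ovary1, and made up 77.0% of the gap in means; the other 42 eliminated parts held 6.24% and 6.29% in testis1, against 4.75% and 5.13% in ovary1. Scaffold 174 had 17956 and 23299 RPM in testis1, against 4103 and 4946 in ovary1 (edgeR adjusted p = 5.34e-05). Scaffold 158 had 17553 and 20434 in testis1, against 4783 and 5462 in ovary1 (edgeR adjusted p = 1.47e-05). Scaffold 129 had 10581 and 13453 in testis1, against 3343 and 3903 in ovary1 (log2 1.73 ± 0.13; edgeR adjusted p = 9.30e-05). Scaffold 35 had 15324 and 11691 in testis1, against 6610 and 8471 in ovary1 (log2 0.84 ± 0.16; edgeR adjusted p = 0.00571). Of the 10 eliminated parts with most peak length, 8 were higher in testis1, and scaffolds 54 (log2 -0.03 ± 0.12) and 148 (-0.05 ± 0.08) did not pass the test. Scaffold 163 lost its call without the first ovary1 library and scaffold 10 without the second. Of the 6 lower parts, scaffold 250 held the run of windows with the largest fall, from 80001 to 180000, with 1890 and 1608 RPM in testis1, against 3394 and 3033 in ovary1.

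Among the named runs of called windows, 4 lay on scaffolds 174, 129 and 158. On scaffold 174, 4 windows from 100001 to 180000 had 16116 and 20851 RPM in testis1, against 2634 and 3179 in ovary1, and peaks covered 41.0% of the run in testis1 and 5.90% in ovary1. On scaffold 129, 4 windows from 200001 to 280000 had 8211 and 11213 in testis1, against 793 and 775 in ovary1. On scaffold 158, the runs from 120001 to 160000 and from 300001 to 340000 had 5554 and 7078, and 3000 and 2720, in testis1, against 1379 and 1683, and 763 and 906, in ovary1, and its other reads lay outside them. In the other gonad lists cover of the run on scaffold 174 was low: 1.48% in testis2, 5.74% in ovary2, 4.23% in testis3 and 1.27% in ovary3. It was 52.5% in the 5day embryo list and 34.2% in L1 larvae. The run on scaffold 158 from 120001 differed, with 32.0% in testis2, 8.23% in ovary2, 33.7% in testis3 and 34.15% in ovary3. Over the same 4 lists, cover was 4.24% to 11.4% on the run of scaffold 129. On the second run of scaffold 158 it was 3.19% to 23.6%.

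Very dense peaks, of at least 200 bp and at least 10 times the median density of their list, numbered 68 in testis1 and 28 in ovary1. They held 8.92% and 9.71% of reads in peaks in testis1, against 2.15% and 2.58% in ovary1. Eliminated peaks made up 53 of the 68 in testis1 and 27 of the 28 in ovary1. Of the dense ovary1 peaks 27 overlapped a testis1 peak, while 39 of the dense testis1 peaks overlapped no ovary1 peak. Those 39 held 5.44% and 5.83% of the testis1 reads in peaks, and 22 of them were on scaffolds 174, 158, 129 and 35. The 5day embryo list overlapped 31 of the 39, and testis2 overlapped 8, testis3 7, ovary2 9 and ovary3 3. It also overlapped 21 of the 29 shared dense peaks of testis1 and 22 of the 27 of ovary1. The testis1 peak of scaffold 158 from 174517 to 176631 alone had 16740 and 20863 reads; the nearest ovary1 peak was 20.5 kb away, and the 5day list covered all of it. The densest testis1 peak marked eliminated, on scaffold 35 from 1284909 to 1286175, had 16010 and 7579 reads. These are 3166 and 1463 RPM per kb, so its libraries disagreed by more than 2-fold. Whether such peaks are single-copy sequence was not tested.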

How the data were processed

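CENP-A ChIP-seq libraries of testis1 and ovary1 (2 each) were used. The submitters' processing notes name Bowtie2 and MACS2, without versions or settings. The authors deposited 1 peak table per list, which gives, per the file headers, each peak's scaffold, start, end and mark and the read count of each of 2 libraries. The counts are whole numbers and were used as deposited. Which column is single-end, and whether starts count from 0 or 1, is not given. Scaffold names carry the assembly name AgBionano_v1.9. The input libraries were not analysed here.

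Spans are the last peak end over the 12 lists. Loci, 20 kb windows and scaffold parts with at least 10 reads in at least 2 libraries were fitted with edgeR 4.0.16 (quasi-likelihood, library size = reads in peaks, Benjamini-Hochberg, 0.05) in R 4.3.3, tested on simulated data. Reads of a peak were divided among windows by length. DESeq2 1.42.0, limma 3.58.1 and other settings were alternatives. Named regions were, in each direction, the 5 loci, window runs and scaffold parts with the largest change that passed fixed minimum sizes, the 5 longest loci, the 10 eliminated parts with most peak, the 5 longest list-only runs and the 3 widest list-only peaks per list; not all are printed. The comparison, lists and rules were chosen with earlier results of these data known. The set of 24 scaffolds, the stretches, the very dense peaks and the list-only scaffolds were chosen after their values were seen.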

Additional observations from a re-analysis of the deposited data

How the results depend on the processing

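For the set of 24 low scaffolds, TMM scaling, DESeq2, limma, no filter, the replicate block and leaving out any 1 library each gave the same 24, and lists cut to equal covered length gave 27 that include them. With only peaks at or above the median density of both lists together, a cut that keeps fewer testis1 peaks by construction, 65 scaffolds lay below -1 and 22 of the 24 remained.

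Counts depended more on the settings. Loci denser and less dense in testis1 (54 and 3978) were 31 and 1813 by DESeq2, 1451 and 2008 without the length offset, 213 and 518 centred on the median locus, and 22 and 452 with the median cut; equal length gave 2432 less dense, and at least 200 bp of peak in each list 14 denser. The centred scale and the 200 bp minimum were added after the data were seen. Windows higher and lower (1886 and 1818) were 1208 and 1153 at 50 kb, 3561 and 3216 with a peak in either list, 333 and 1098 with the median cut, and 1199 higher at equal length. Scaffold parts (78 and 89) were 37 and 163 at equal length and 18 and 225 with the median cut. Leaving out 1 library gave 34 to 57 denser and 2184 to 3922 less dense loci, 1559 to 1897 higher and 1463 to 1926 lower windows, and 44 to 97 higher and 70 to 120 lower parts. The cause of these shifts was not tested beyond the fewer samples or peaks that each setting uses.

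With the replicate block, loci were 56 and 4017, windows 1898 and 1855 and parts 82 and 108. The numbers were given by name and do not pair libraries: same-numbered libraries had deviations that correlated at -0.0407 over loci, -0.0450 over windows and -0.0148 over parts.

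Overlap moved as follows. The Jaccard index (shared over joint length) was 0.422, and 0.340 with the median cut. The overlapped share of testis1 peaks (53.7%) became 37.7% when 50% of the peak was required, 65.3% with the median cut and 62.6% at equal length; that of ovary1 peaks (66.2%) became 57.8%, 27.5% and 51.9%, so its order against testis1 turned round in both cuts. The ratio of median widths of shared over list-only peaks, 2.58 in testis1 and 1.86 in ovary1, was 16.9 and 2.38 with the median cut. Eliminated reads in testis1 (12.8%) were 22.7% with the median cut and 14.7% at equal length. Testis2 overlap of testis1-only peaks (51.3%) became 42.1% at 50% overlap and 45.8% with the median cut, and ovary2 overlap (19.8%) 12.8% and 17.9%; for ovary1-only peaks the values were 19.3% and 50.3% for testis2 and 17.5% and 43.8% for ovary2.

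The following values changed sign. On scaffold 5, the locus from 205612 was at 0.025 by DESeq2, 0.031 by TMM, 0.80 without offset, 0.41 centred, and -0.23 to 0.066 without 1 library. Centred, the loci on scaffolds 88, 4, 131 and 55 were at 0.27, 0.27, 0.36 and 0.19; without offset those on 71 and 131 were at -0.52 and 0.077. The eliminated part of scaffold 54 was at 0.011 by TMM and -0.21 to 0.17 without 1 library, that of 148 at -0.15 to 0.053 without 1 library, and retained scaffold 297 at -3.14 with the median cut. Of 537 alternative values of named regions, 493 kept their direction and side of the threshold. Regions without a value under a setting are not among the 537. The loci on scaffolds 1, 22 and 79, among the least dense in testis1, had none at equal length or with the median cut. Those on scaffolds 127 and 266 had none when an overlap of 50% of the shorter peak was required.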
